A study of Mus musculus with 10 samples.

Results

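The regions described here are 6 mm9 windows around genes for secreted signals, and for a co-receptor of such signals, that are known for their activity in mouse embryonic stem (ES) cells. The windows are Fgf4 (chr7:152040001-152060000), Nodal (chr10:60878001-60892000), Inhbb (chr1:121305001-121330000), Tdgf1 (chr9:110838001-110852000), Lefty1 (chr1:182862001-182872000) and Lefty2 (chr1:182820001-182832000). They were chosen by their H3K27me3 and H3K4me3 values in these same libraries, and they hold 5534 of the 47961535 autosomal reads in the 10 libraries. Every value of these 6 windows is therefore given as a description with its counting error, and none is tested. Each window covers a gene and some of its surroundings, so its reads are those of a region and not of a transcript.

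The libraries are chromatin immunoprecipitations for H3K4me3, a mark of active promoters, and H3K27me3, which Polycomb complexes deposit at silent genes, in 3 mouse ES cell lines. The line XT67E1 (strain label C3H/Pgk*129) was profiled for both marks after treatment with all-trans retinoic acid (atRA) for 4 days, as embryoid bodies (EBs) grown for 10 days without LIF, and undifferentiated on gelatin with serum and LIF. The lines LF2 and E14 (strain label 129/Ola) were profiled for H3K27me3 as 10-day EBs and undifferentiated. Each of the 10 groups is 1 library, so no difference has a replicate check, and any change in every cell cannot be told apart from a change in the share of cells that carry a mark. Within a mark and line the files list the same number of reads. Each H3K4me3 library has 2252395, each XT67E1 H3K27me3 library has 8380007, and the H3K27me3 libraries from E14 and LF2 have 4531733. Counts are given as reads or as RPM (reads per megaread of autosomal depth), and levels of different genes are compared as a multiple of the mean autosomal tile of the same length.

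FGF4 is a growth factor that ES cells secrete and that signals through the ERK pathway, which ES cells use as they leave self-renewal. Nodal and activins, the dimers of inhibin beta subunits such as that encoded by Inhbb, are ligands of the TGF-beta family that bind activin receptors and act through SMAD2 and SMAD3. Tdgf1 encodes Cripto, a membrane-anchored co-receptor that Nodal needs and activin does not. Lefty1 and Lefty2 are secreted antagonists of Nodal and are themselves induced by Nodal signalling. In the embryo the same genes act in germ layer formation and in left-right patterning.

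Of the 6 genes, 4 had a RefSeq promoter sequence (build GRCm38.p6, 250 bases before to 50 bases after the start of the gene), matched by symbol. They are shown because the 4 promoters differ in CpG dinucleotides, with more at Fgf4 and Inhbb than at Nodal and Tdgf1. Each is written 5′ to 3′ on the strand of its gene, with every CpG in capitals. These positions belong to another build than the reads and cannot be set against the mm9 positions.
Fgf4, chr7:144861136-144861435 (plus strand, GRCm38.p6): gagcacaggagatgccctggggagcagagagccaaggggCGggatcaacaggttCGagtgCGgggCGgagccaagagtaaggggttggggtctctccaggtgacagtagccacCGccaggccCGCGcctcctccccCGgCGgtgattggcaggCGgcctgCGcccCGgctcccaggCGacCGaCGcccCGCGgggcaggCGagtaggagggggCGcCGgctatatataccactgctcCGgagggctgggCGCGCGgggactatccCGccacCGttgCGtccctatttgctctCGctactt
Nodal, chr10:61417722-61418021 (plus strand, GRCm38.p6): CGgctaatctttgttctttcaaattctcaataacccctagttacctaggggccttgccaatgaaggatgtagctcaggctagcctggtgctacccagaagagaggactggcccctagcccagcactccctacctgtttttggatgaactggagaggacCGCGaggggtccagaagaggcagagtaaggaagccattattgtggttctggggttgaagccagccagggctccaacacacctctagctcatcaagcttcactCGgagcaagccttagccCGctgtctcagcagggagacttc
Inhbb, chr1:119422199-119422498 (minus strand, GRCm38.p6): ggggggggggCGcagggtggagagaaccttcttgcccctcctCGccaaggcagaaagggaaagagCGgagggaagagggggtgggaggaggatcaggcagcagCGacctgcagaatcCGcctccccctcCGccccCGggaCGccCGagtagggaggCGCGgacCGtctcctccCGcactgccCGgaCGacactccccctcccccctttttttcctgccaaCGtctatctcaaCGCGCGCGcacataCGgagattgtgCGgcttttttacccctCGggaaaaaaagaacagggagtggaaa
Tdgf1, chr9:110946109-110946408 (minus strand, GRCm38.p6): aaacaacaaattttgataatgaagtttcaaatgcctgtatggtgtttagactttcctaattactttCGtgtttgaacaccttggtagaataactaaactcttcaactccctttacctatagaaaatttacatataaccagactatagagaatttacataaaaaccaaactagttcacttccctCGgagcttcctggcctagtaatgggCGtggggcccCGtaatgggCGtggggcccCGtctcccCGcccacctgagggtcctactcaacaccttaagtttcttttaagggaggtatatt

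Fgf4 held 28 CpG in its 300 bases and Inhbb 23, against 7 in Tdgf1 and 5 in Nodal. The median over 32851 RefSeq promoters of this length was 7. Fewer CpG than in Fgf4 were found in 85.8% of all promoters, and fewer than in Inhbb in 78.5%. For Tdgf1 this share was 47.9% and for Nodal 38.0%, so these promoters were not unusually poor in CpG. The ratio of observed to expected CpG was 0.774 for Fgf4 and 0.741 for Inhbb, 0.545 for Tdgf1 and 0.229 for Nodal. The GC box GGGCGG, searched on both strands and overlapping with CpG counts, occurred 2 times in Fgf4, 1 time each in Inhbb and Tdgf1 and 0 times in Nodal, and 35.7% of all promoters hold it. The SMAD box CAGAC occurred 1 time in Tdgf1 and in no other of the 4 promoters, while 49.6% of all promoters hold it. The FOXH1 motif AATNCACA, the octamer ATGCAAAT and the nuclear receptor motif AGGTCA had 0 matches in these 4 windows, and 3.60%, 1.74% and 16.3% of all promoters hold them. Fgf4 alone of the 4 held TATATA (2 overlapping matches), which 5.67% of all promoters hold. Of 30 further genes of the FGF and Nodal pathways, 19 had a RefSeq promoter sequence. With the promoter richest in CpG taken for each gene, their median was 25 CpG and their range 2 to 54. The median of 7 over all promoters involved no such choice, so the medians are not directly comparable.

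In undifferentiated XT67E1 cells each of the 6 windows carried H3K4me3 well above the genome and, in 5 of the 6, H3K27me3 below its mean. H3K4me3 was 18.3 times the mean tile at Tdgf1, 14.4 times at Fgf4, 13.3 times at Nodal, 10.4 times at Lefty2, 9.51 times at Lefty1 and 9.40 times at Inhbb. Neighbours in this order had overlapping 95% counting intervals. H3K27me3 was lowest at Tdgf1 (0.396 times the mean tile), Nodal (0.440 times) and Fgf4 (0.509 times), followed by Inhbb (0.727 times), Lefty2 (0.848 times) and Lefty1 (1.29 times, 95% counting interval 0.933 to 1.75). Most H3K4me3 reads lay in few bins: of the 47 whole 2 kb bins of the windows, 15 held at least 20 undifferentiated H3K4me3 reads, with 3 each at Fgf4, Nodal and Inhbb and 2 each at the other three.

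**Figure D1:**
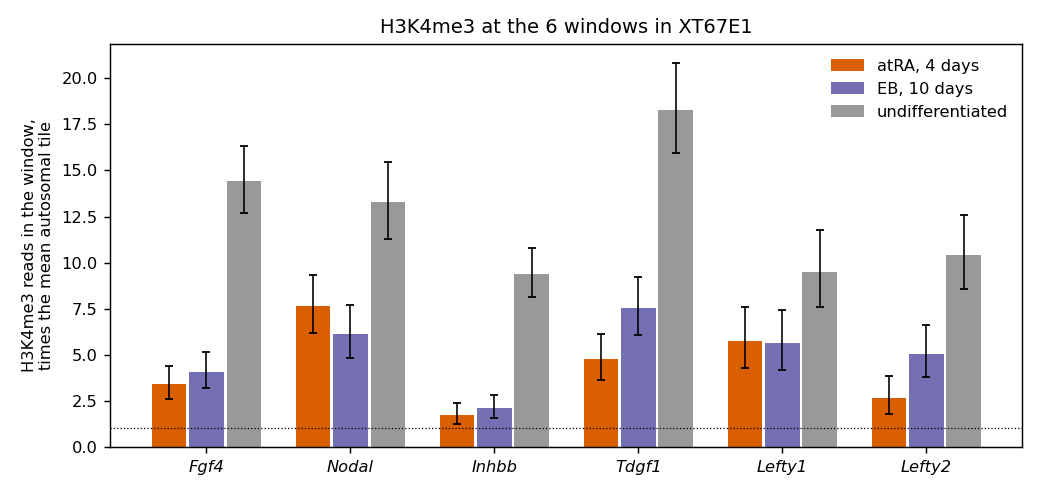
H3K4me3 reads in each window as a multiple of the mean autosomal tile of the same length, in XT67E1 after atRA, as EBs and undifferentiated. Bars are single libraries, whiskers are 95% Poisson counting intervals and the dotted line marks the genome mean; the undifferentiated bar is the highest of the 3 at each gene.

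Both differentiations of XT67E1 went with less H3K4me3 at these genes. The Fgf4 window held 59 reads after atRA and 71 in EBs, against 252 in undifferentiated cells. The Inhbb window held 38 reads after atRA and 46 in EBs, against 205 in undifferentiated cells. The Tdgf1 window held 58 reads after atRA and 92 in EBs, against 223 in undifferentiated cells. Fgf4 and Inhbb thus had nearly the same low level in both differentiated states, while Tdgf1 kept more of the mark in EBs. After atRA, Inhbb was at 0.186 times its undifferentiated level (95% counting interval 0.128 to 0.263), Fgf4 at 0.234 times (0.173 to 0.312) and Tdgf1 at 0.260 times (0.192 to 0.349). In EBs the corresponding values were 0.224 for Inhbb (0.159 to 0.310), 0.282 for Fgf4 (0.213 to 0.368) and 0.413 for Tdgf1 (0.320 to 0.528).

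Among Nodal and the Lefty antagonists, Lefty2 kept a smaller share of its H3K4me3 after atRA, while the intervals of all 3 overlapped in EBs. The Nodal window held 93 reads after atRA and 75 in EBs, against 162 in undifferentiated cells. The Lefty2 window held 28 reads after atRA and 53 in EBs, against 109 in undifferentiated cells. The Lefty1 window held 50 reads after atRA and 49 in EBs, against 83 in undifferentiated cells. Each of the 3 windows thus held fewer reads in both differentiated states than in undifferentiated cells. After atRA, Lefty2 was at 0.257 times its undifferentiated level (0.163 to 0.393), Nodal at 0.575 times (0.441 to 0.746) and Lefty1 at 0.603 times (0.416 to 0.867). In EBs, Nodal was at 0.463 times (0.347 to 0.612), Lefty2 at 0.486 times (0.343 to 0.681) and Lefty1 at 0.590 times (0.406 to 0.850). The intervals of Nodal and Lefty1 overlapped in both states. Lefty1 and Lefty2 encode close relatives, and whether reads that match both copies were kept, dropped or split is not given in the sources used here.

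A window was called lower or higher where it differed at least 2-fold, its 95% counting interval excluded no change and the 2 libraries held at least 20 reads in it. By this rule 4 of the 6 windows were lower after atRA (Fgf4, Inhbb, Tdgf1 and Lefty2), against 2.64% of autosomal tiles of the same lengths, and 5 of 6 were lower in EBs (all but Lefty1), against 1.85% of tiles. In EBs the Lefty2 call was lost with a pseudocount of 5 reads (log2 ratio -0.97) and the Nodal call with windows shortened by 2 kb at each end (-0.88), which left 4 windows each time. In 2 kb bins, 13 of the 16 bins with enough reads were lower after atRA and 12 of 16 in EBs, against 12.2% and 12.8% of all such autosomal bins. Since the windows were chosen with these values known, nothing is read from the excess. Marked bins also moved as a whole in EBs: over the 1% of 2 kb bins with the most H3K4me3 after atRA, the median log2 ratio of EBs over undifferentiated cells was -0.30, and over the 1% with the most in EBs that of atRA over undifferentiated cells was 0.00. The part of this shift in the EB values of the 6 windows was not tested.

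EBs and atRA were also compared directly. For H3K4me3, 0 of 6 windows were called, against 3.38% of tiles called either way. The Lefty2 window held 53 reads in EBs against 28 after atRA (ratio 1.89, 95% counting interval 1.17 to 3.10), and Tdgf1 held 92 against 58 (1.58, 1.13 to 2.24). The intervals of the other four windows included 1.

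The 2 kb bin with the most H3K4me3 reads in undifferentiated XT67E1 was called lower in both states at Fgf4, Inhbb, Tdgf1 and Lefty2. At Lefty1 it was called lower after atRA alone (13 against 39 reads, log2 ratio -1.51). Choosing the bin by its undifferentiated reads favours lower values in the differentiated libraries, so these calls only describe it. At Fgf4 this bin, chr7:152048001-152050000, held 29 reads after atRA and 28 in EBs, against 130 in undifferentiated cells. A second, smaller site of the mark in the same window, at chr7:152042001-152044000, held 5 and 5 reads, against 23. At Inhbb the top bin, chr1:121316001-121318000, held 8 reads after atRA and 8 in EBs, against 84, the lowest remaining share of the 6 genes. The top bin of Tdgf1, chr9:110846001-110848000, held 31 reads after atRA and 56 in EBs, against 136. That of Nodal, chr10:60880001-60882000, held 43 and 48 reads, against 81, and was not called lower in either state.

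H3K4me3 beside the genes was not uniformly lower. The 12 kb before the Lefty2 window held 35 reads after atRA and 35 in EBs, against 113 in undifferentiated cells, log2 ratios of -1.66 in both states, beside -1.92 after atRA and -1.03 in EBs in the window itself. The 14 kb after the Tdgf1 window, on the side of its neighbour Lrrc2, held 43 reads after atRA and 62 in EBs, against 111. In contrast, the 14 kb on either side of Nodal held between 12 and 16 H3K4me3 reads in each of the 3 libraries. The 25 kb before Inhbb, on the side of Gli2, was also lower, with 21 reads after atRA and 21 in EBs, against 54. The differences at Lefty2, Tdgf1 and Inhbb were therefore not limited to the windows of these genes.

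H3K27me3 was higher in XT67E1 after atRA at Fgf4 and Inhbb. The Fgf4 window held 160 reads after atRA, against 33 in undifferentiated cells, a ratio of 4.85 (95% counting interval 3.32 to 7.29). The Inhbb window held 370 reads after atRA, against 59 in undifferentiated cells, a ratio of 6.28 (4.76 to 8.41). Among autosomal tiles of the same length, 0.00171% had a higher ratio than Fgf4 and 0.00106% a higher ratio than Inhbb. These tiles include those over the windows themselves, and the windows were chosen with these values known. The shares are therefore no test, and nothing is read from them. Nodal held 38 reads after atRA against 20 (1.90, 1.08 to 3.45) and Lefty2 held 57 against 33 (1.73, 1.11 to 2.74), both under the 2-fold limit. Tdgf1 (24 against 18 reads) and Lefty1 (52 against 42) had intervals that included no change. In all, 2 of 6 windows were called higher, against 0.556% of tiles. Of the 12 bins of 2 kb with enough reads, 9 were called higher, against 3.66% of bins. A bin with few undifferentiated reads could reach 20 reads only where the atRA library was high, which favours such calls. Nothing is read from this bin count. Nodal passed the limit as well with background scaling (log2 ratio 1.03) and with interval starts in place of midpoints (1.00), and Lefty2 did so in shortened windows (1.14). H3K27me3-rich regions moved in the same direction: over the 1% of 14 kb tiles with the most H3K27me3 in the other 5 libraries of the mark, the median log2 ratio of atRA over undifferentiated cells was 0.37.

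At Tdgf1 a low H3K4me3 ratio after atRA came with little H3K27me3. Its H3K4me3 was at 0.260 times the undifferentiated level, about as low as Fgf4. As a level this was still 4.76 times the mean tile, against 3.39 times at Fgf4, 2.68 times at Lefty2 and 1.74 times at Inhbb. The H3K27me3 level of Tdgf1 was 0.529 times the mean tile (0.339 to 0.787) after atRA, against 0.396 times (0.235 to 0.626) in undifferentiated cells. Fgf4 with the same treatment had H3K27me3 at 2.47 times the mean tile and Inhbb at 4.57 times. Lefty2, with H3K4me3 at 0.257 times, had H3K27me3 at 1.47 times the mean tile. Similar H3K4me3 ratios thus went with H3K27me3 levels on both sides of the genome mean.

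In XT67E1 EBs, H3K27me3 was higher at 4 of the 6 windows, against 1.61% of tiles. Fgf4 held 148 reads in EBs, against 33 in undifferentiated cells (ratio 4.52, 3.08 to 6.81). Inhbb held 283 reads in EBs, against 59 (4.84, 3.64 to 6.52). Tdgf1 held 51 reads in EBs, against 18 (2.86, 1.64 to 5.20), and Nodal held 47 against 20 (2.37, 1.38 to 4.22). The level reached by Nodal and Tdgf1 was close to the genome mean, at 1.04 and 1.13 times the mean tile, whereas Fgf4 reached 2.30 times and Inhbb 3.52 times. Lefty1 (74 against 42 reads) and Lefty2 (53 against 33) had ratios of 1.78 and 1.62. The Nodal call was lost in shortened windows (log2 ratio 0.75), where Lefty1 was called (1.26), and in extended windows (0.92). In 2 kb bins, 9 of 14 were higher, against 2.15% of all bins, a count with the same limit from the read minimum as after atRA. Set directly against atRA, EBs were called higher at 1 of 6 windows, Tdgf1 (51 against 24 reads, ratio 2.14, 1.29 to 3.64), against 4.75% of tiles called either way, and that call was lost with scaling to background reads. Inhbb had fewer reads in EBs than after atRA (283 against 370, ratio 0.771, 0.658 to 0.902).

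**Figure D2:**
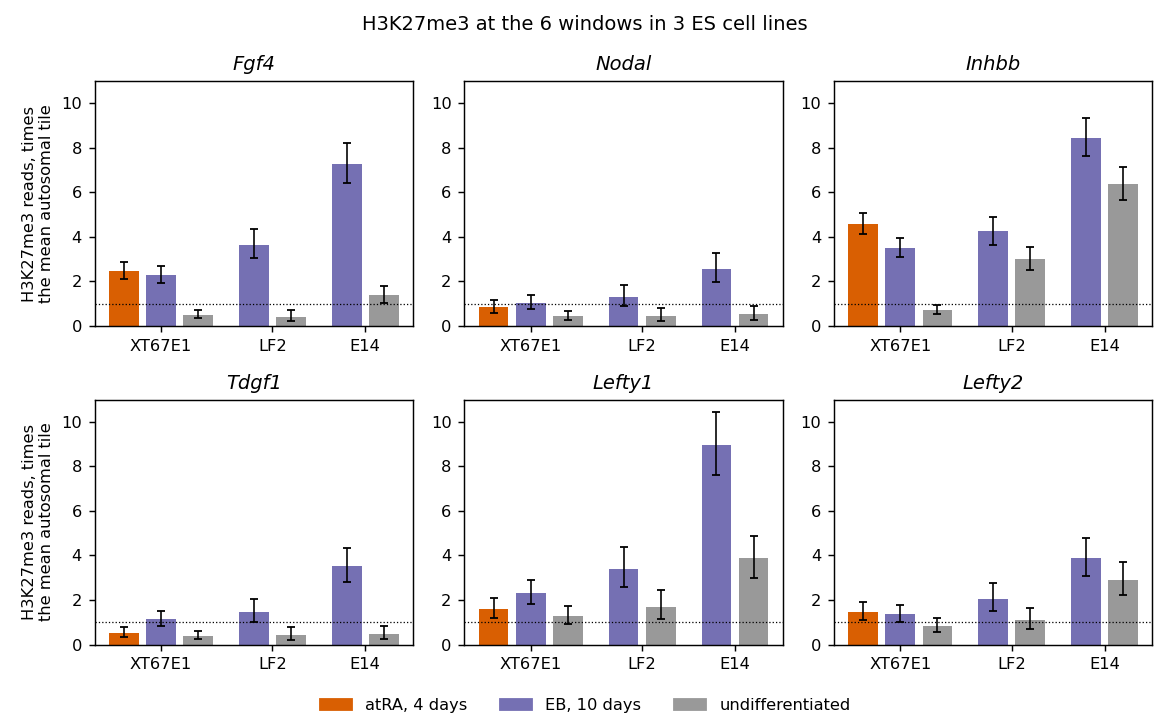
H3K27me3 reads in each window as a multiple of the mean autosomal tile of the same length, for the 7 H3K27me3 libraries. Bars are single libraries, whiskers are 95% Poisson counting intervals and the dotted line marks the genome mean; Inhbb is already at 2.99 times the mean in undifferentiated LF2 and 6.37 times in undifferentiated E14.

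In EBs of LF2 and E14, Fgf4, Nodal and Tdgf1 again had more H3K27me3 than in undifferentiated cells of the same line. In LF2, Fgf4 held 127 reads in EBs against 15 in undifferentiated cells (ratio 8.57, 5.01 to 15.8), Tdgf1 held 36 against 11 (3.31, 1.65 to 7.22) and Nodal held 32 against 11 (2.95, 1.45 to 6.48). In E14, Fgf4 held 260 reads in EBs against 49 (5.30, 3.89 to 7.34), Tdgf1 held 88 against 12 (7.32, 3.99 to 14.7) and Nodal held 64 against 13 (4.91, 2.68 to 9.72). These 3 genes were called in each of the 3 lines, with the exceptions given above for Nodal in XT67E1, while Inhbb was called in XT67E1 alone. Lefty1 was called in E14 (160 against 69 reads, 2.31, 1.73 to 3.12), though not in extended windows (log2 ratio 0.83). Its ratio in LF2 was 1.99 (59 against 30 reads, 1.26 to 3.20), and it was called there in shortened windows (log2 ratio 1.06). Lefty2 was called in none of the 3 lines, with 43 against 23 reads in LF2 and 83 against 62 in E14. By count, 3 of 6 windows were higher in LF2, against 3.64% of tiles, and 4 of 6 in E14, against 1.46%. In 2 kb bins, 4 of 11 were higher in LF2 and 13 of 25 in E14, against 1.98% and 9.11% of all bins. The read minimum favours higher calls in these bins too, so nothing is read from the counts. H3K27me3-rich 14 kb tiles, chosen in the libraries of the mark outside each comparison, did not move alike. Their median log2 ratio of EBs over undifferentiated cells was 0.24 in E14, 0.12 in XT67E1 and -0.27 in LF2. The part of these shifts in the window values was not tested.

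Over the 3 lines, the mean log2 ratio of EBs over undifferentiated cells was 2.51 ± 0.45 at Fgf4, 1.96 ± 0.71 at Tdgf1, 1.63 ± 0.52 at Nodal, 1.06 ± 1.04 at Inhbb, 0.99 ± 0.19 at Lefty1 and 0.66 ± 0.24 at Lefty2 (SD, n = 3 lines each). The ratio was above 0 in 3 of 3 lines for each gene. The spread of Inhbb was the widest of the 6, with a log2 ratio of 2.26 for XT67E1, 0.50 for LF2 and 0.41 for E14. Without XT67E1 its mean was 0.46. At Fgf4 the 3 lines were closer, with 3.02 for LF2, 2.38 for E14 and 2.14 for XT67E1.

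**Figure D3:**
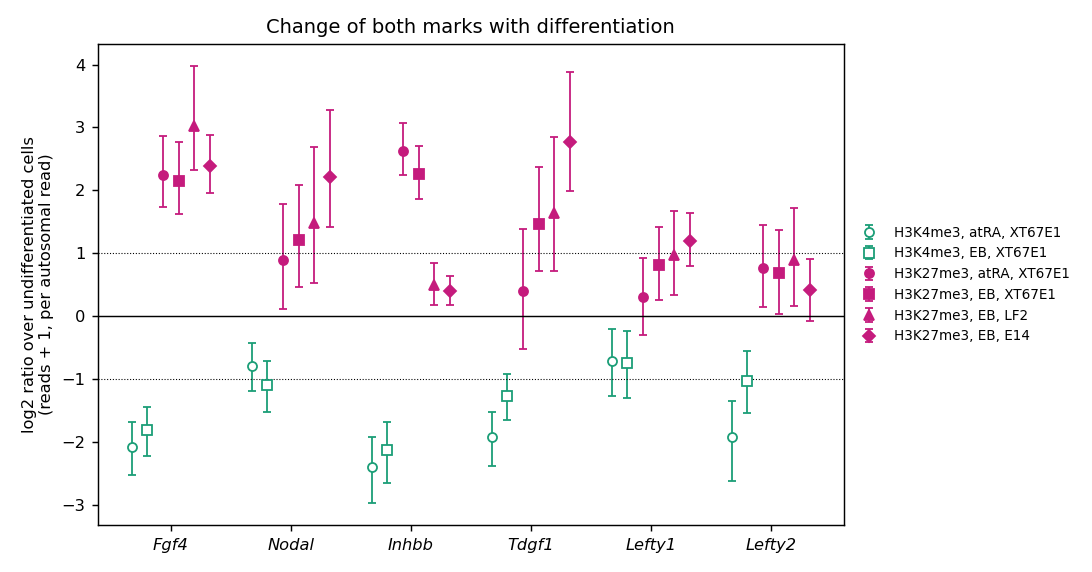
Log2 ratio of each differentiated library over the undifferentiated library of the same mark and line, per window, with 95% counting intervals; open green symbols are H3K4me3 and filled magenta symbols H3K27me3. Dotted lines mark 2-fold; H3K4me3 ratios lie below 0 and H3K27me3 ratios above 0 at each gene, and Inhbb has the lowest H3K27me3 ratio of its 4 comparisons in E14 at 0.41.

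The small ratios of Inhbb in LF2 and E14 came with a high level before differentiation. Undifferentiated cells held 30.2 RPM of H3K27me3 at Inhbb in LF2 and 64.4 RPM in E14, against 7.36 RPM in XT67E1. These are 4.11 times (95% counting interval 3.00 to 5.69) and 8.75 times (6.59 to 11.8) the XT67E1 value. In EBs the same window held 42.9 RPM in LF2 and 85.5 RPM in E14, against 35.6 RPM in XT67E1. The EB level was 2.40 times that of XT67E1 in E14 (2.05 to 2.81), and in LF2 it was 1.21 times, with an interval that included 1 (0.997 to 1.46). Both ratios to XT67E1 were smaller in EBs than in undifferentiated cells. Tiles rich in H3K27me3 in the other 5 libraries moved alike in LF2, with a median log2 ratio over XT67E1 of 0.16 in EBs and 0.59 in undifferentiated cells, but not in E14 (0.62 and 0.53), and their part in the Inhbb values was not tested. XT67E1 also differs from the other two lines in strain, which cannot be told apart from the line here.

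Among the other windows, undifferentiated E14 was called higher than undifferentiated XT67E1 at Fgf4, Lefty1 and Lefty2. With Inhbb this makes 4 of 6 windows, against 3.35% of tiles, while LF2 was called higher than XT67E1 at Inhbb and at no other window, 1 of 6, against 1.15%. Undifferentiated E14 and LF2 were also more enriched in general: the top 1% of 14 kb tiles held 7.07% of autosomal reads in E14 and 6.94% in LF2, against 4.84% in XT67E1. Of the H3K27me3-rich tiles, 15.3% were called higher in E14 and 7.19% in LF2 than in XT67E1. Lefty1 held 15.6 RPM and Lefty2 14.1 RPM in undifferentiated E14, against 5.24 and 4.11 RPM in undifferentiated XT67E1. Nodal and Tdgf1 were low in all 3 undifferentiated lines, between 2.24 and 2.95 RPM. In EBs, E14 was called higher than XT67E1 at 6 of 6 windows, against 1.39% of tiles, and LF2 at 0 of 6, against 1.01%. The same was seen in E14 EBs: the top 1% of 14 kb tiles held 8.29% of autosomal reads in E14 EBs and 5.04% in XT67E1 EBs, and 17.3% of the H3K27me3-rich tiles were called higher. The log2 ratios of the 6 windows in these EBs were 1.26 to 1.95. The part of the general differences in the window values of either state was not tested.

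In XT67E1, H3K27me3 at Fgf4 and Inhbb was higher above all in the bins that had carried H3K4me3. After atRA, the 3 Fgf4 bins with at least 20 undifferentiated H3K4me3 reads held 95 H3K27me3 reads, against 5 in undifferentiated cells (log2 ratio 4.00, 95% counting interval 2.98 to 5.90). The other 7 bins of the window held 65 reads after atRA, against 28 (1.19, 0.56 to 1.91). At Inhbb the 3 H3K4me3 bins held 205 reads after atRA, against 11 (4.10, 3.35 to 5.25), and the other 9 bins 159 against 43 (1.86, 1.39 to 2.41). In both genes the intervals of the H3K4me3 bins and of the other bins did not overlap. Single bins varied: the H3K4me3 bin chr7:152042001-152044000 of Fgf4 held 1 H3K27me3 read after atRA against 2. Outside the H3K4me3 bins, chr7:152050001-152052000 of Fgf4 held 15 against 1 and chr1:121312001-121314000 of Inhbb 43 against 4. In EBs of LF2 and E14 the intervals of both sets of bins at Fgf4 overlapped (log2 ratios 3.43 and 2.58 in LF2, 2.68 and 2.00 in E14). At Nodal, which was under the limit as a window, the 3 H3K4me3 bins held 26 reads after atRA, against 9 (1.43, 0.39 to 2.81), and the other 4 bins 12 against 11.

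In EBs the point estimates were ordered the same way at Nodal, Tdgf1 and Lefty1, although the intervals of the 2 sets of bins stood apart in E14 at Tdgf1 alone of these genes. In E14 the 3 Nodal bins with H3K4me3 held 54 reads in EBs, against 6 in undifferentiated cells (2.97, 1.95 to 4.68), and the other 4 bins 10 against 7. The 2 Tdgf1 bins held 57 reads in E14 EBs, against 1 (4.86, 3.29 to 11.2), and the other 5 bins 31 against 11 (1.41, 0.46 to 2.63). The 2 Lefty1 bins held 98 reads in E14 EBs, against 28 (1.77, 1.19 to 2.47), and the other 3 bins 62 against 41 (0.58, 0.00 to 1.20). The ratio of Lefty1 in E14 was thus larger in its H3K4me3 bins, with overlapping intervals. Outside these bins, chr1:182862001-182864000 held 18 reads in E14 EBs against 6 in undifferentiated cells. The Lefty1 bin with the most H3K27me3 over the 7 libraries, chr1:182870001-182872000, also lies outside the H3K4me3 bins. It had 24 reads in E14 EBs against 25 in undifferentiated cells. Lefty2 showed no clear difference in E14, with 47 against 33 reads in its H3K4me3 bins (0.49, -0.17 to 1.20), nor in LF2, with 20 against 11 in those bins (0.83, -0.25 to 2.09) and 23 against 12 in the others (0.90, -0.11 to 2.10). In XT67E1 its H3K4me3 bins were called higher in EBs (31 against 14, 1.11, 0.21 to 2.18) and after atRA (33 against 14, 1.18, 0.30 to 2.25). Its other bins were called in neither state, and the intervals of both sets of bins overlapped.

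**Figure D4:**
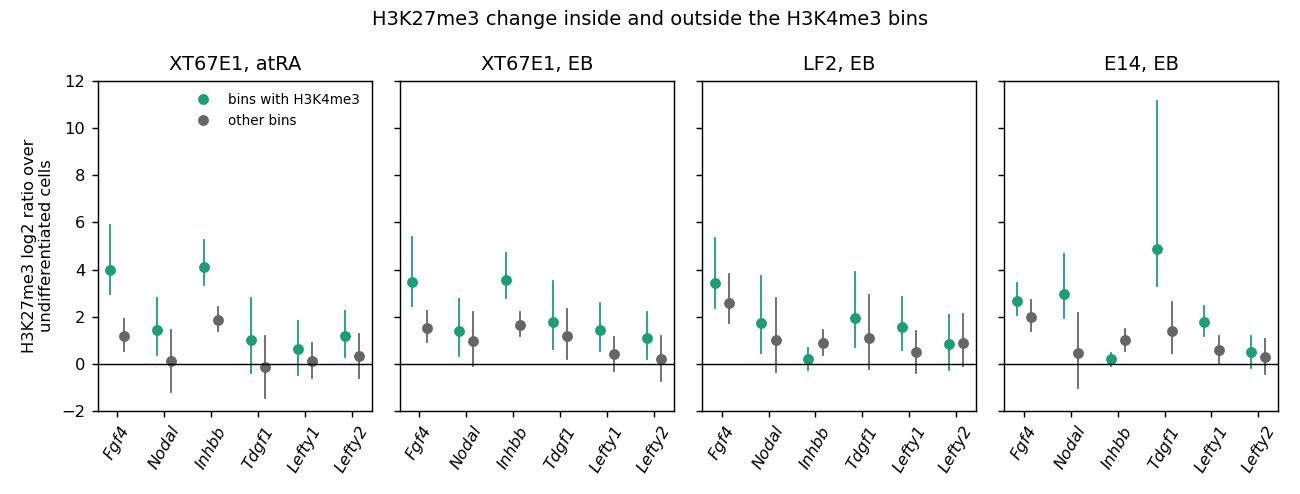
Log2 ratio of H3K27me3 over undifferentiated cells in the 2 kb bins with at least 20 undifferentiated XT67E1 H3K4me3 reads (green) and in the other bins of each window (grey), with 95% counting intervals. In XT67E1 the green points of Fgf4 and Inhbb stand apart from the grey ones; at Inhbb in LF2 and E14 the grey point is the higher one.

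At Inhbb in LF2 and E14 the other bins had the higher ratio. Its 3 H3K4me3 bins held 251 H3K27me3 reads in E14 EBs, against 220 in undifferentiated cells (log2 ratio 0.19, -0.08 to 0.46), and the other 9 bins 125 against 62 (1.00, 0.56 to 1.47). In LF2 the H3K4me3 bins held 91 reads in EBs, against 80 (0.20, -0.25 to 0.66), and the other bins 94 against 51 (0.89, 0.39 to 1.42). The share of the window's binned reads that lay in the H3K4me3 bins was 66.8% in E14 EBs against 78.0% in undifferentiated E14, 49.2% in LF2 EBs against 61.1% in undifferentiated LF2, and 50.4% in XT67E1 EBs against 20.4% in undifferentiated XT67E1. The share was thus lower in EBs than in undifferentiated cells of E14 and LF2 and higher in those of XT67E1, and in EBs it was largest in E14. The H3K4me3 bins were set from XT67E1, since no H3K4me3 library of LF2 or E14 was analysed here.

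**Figure D5:**
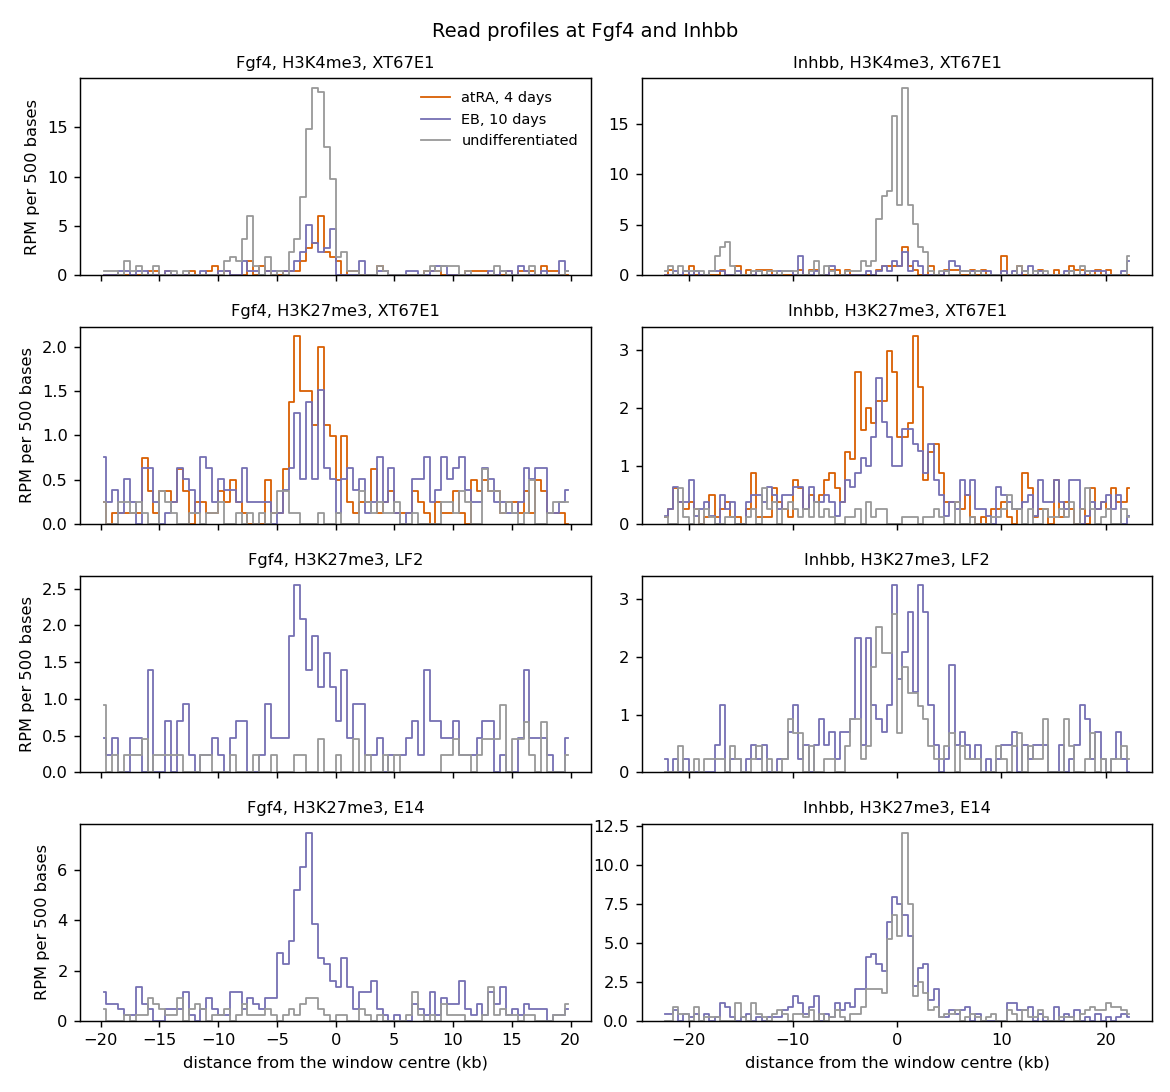
RPM per 500 bases, in steps of 500 bases around the centres of the Fgf4 window (left) and the Inhbb window (right), for H3K4me3 in XT67E1 and H3K27me3 in the 3 lines; each panel has its own scale. At both genes the H3K27me3 of atRA-treated and EB XT67E1 cells lies partly where undifferentiated cells had H3K4me3. Those bins hold 59.4% (atRA) and 44.6% (EBs) of its binned reads at Fgf4, and 56.3% and 50.4% at Inhbb. In undifferentiated cells H3K27me3 at Fgf4 is 0.425 times the mean tile in LF2 and 1.37 times in E14, below the values at Inhbb.

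Around Fgf4 the H3K27me3 differences were smaller than in the window. In the 20 kb before Fgf4, towards Fgf3, XT67E1 held 240 reads after atRA and 238 in EBs, against 137 in undifferentiated cells (log2 ratios 0.81 and 0.80), and LF2 held 152 in EBs against 155. In the 20 kb after Fgf4, towards Fgf15, XT67E1 held 82 reads after atRA and 99 in EBs, against 56. The stretch of 30 kb between Lefty2 and Lefty1 held 145 reads in E14 EBs, against 140 in undifferentiated E14, while the Lefty1 window beside it held 160 against 69. In XT67E1 EBs the same stretch held 159 reads, against 108 (log2 ratio 0.57, 0.21 to 0.94), and the 10 kb before Lefty1 within it was called higher (70 against 31, 1.16, 0.56 to 1.85), beside 0.81 in the Lefty1 window. The 14 kb after Tdgf1 was called higher in E14 EBs (50 against 20 reads), in LF2 EBs (28 against 9) and in XT67E1 after atRA (51 against 22), so part of the H3K27me3 difference there lay beyond the window.

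Bins elsewhere in the genome with a similar pattern were sought over the 10 libraries by Pearson's r of log2(RPM + 0.5), among 43747 autosomal 2 kb bins with at least 100 reads. Closest to the top H3K4me3 bin of Fgf4 were chr7:4070001-4072000 (r = 0.983), chr4:135804001-135806000 (r = 0.972) and chr10:126778001-126780000 (r = 0.972). Closest to that of Inhbb were chr11:117792001-117794000 (r = 0.966), chr4:125168001-125170000 (r = 0.959) and chr17:36282001-36284000 (r = 0.944). The 10 points share cell lines and 2 marks, so r describes these libraries and carries no test. The bin on chromosome 11 held 3 H3K4me3 reads after atRA and 4 in EBs, against 14 in undifferentiated cells.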

How the data were processed

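Deposited files list 1 interval of 200 bp per read with no value, and coordinates are mm9, per the submitters' processing notes; the sources used here do not give the aligner, the read filters or why read numbers are equal within a set. No interval was listed more than once within a file. Intervals were assigned by midpoint to the windows and in whole 2 kb bins inside them (Python 3.11.15, NumPy 2.4.6, SciPy 1.17.1). Counts were scaled to autosomal reads. Ratios in times are of scaled counts, and log2 ratios use counts plus 1 read. Levels have exact Poisson and ratios exact conditional binomial (Clopper-Pearson) 95% intervals, which cover counting error only. Background shares are over all autosomal tiles of the window lengths, or all autosomal 2 kb bins, that reach 20 reads over both libraries. The counting rule was run on simulated Poisson counts, with changes set only in bins of at least 20 reads in the reference library. The simulation had no variation between libraries, so it does not bear on such variation or on changes in bins with fewer reads. Windows, lists and alternatives were chosen with earlier results of these data known. All 6 genes are named, with the 2 kb bins richest in each mark. The split at 20 H3K4me3 reads, the comparisons between lines and the motifs were chosen after the values were seen. No mm9 annotation was used, so the 30 pathway genes were not placed and cell type markers are not analysed here.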

Additional observations from a re-analysis of the deposited data

Results flagged for a closer look

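The top bin of Inhbb, chr1:121316001-121318000, which is the richest of its window in both marks, had a large H3K27me3 ratio in XT67E1 alone. Its log2 ratio of EBs over undifferentiated cells was 3.85 in XT67E1 (42 against 2 reads), 0.37 in E14 (110 against 85) and -0.16 in LF2 (29 against 33). The intervals in E14 (-0.05 to 0.79) and LF2 (-0.94 to 0.60) included no change, so no direction is read from these lines. The next bin, chr1:121318001-121320000, held 79 reads in EBs against 104 in E14 and 41 against 25 in LF2. Both differences were under 2-fold, and no direction is read from them either. In XT67E1 that bin held 47 against 3. The difference between lines was not tested.

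The bin of Lefty1 with the most H3K27me3, chr1:182870001-182872000, had ratios of 0.24 in XT67E1, 0.43 in LF2 and -0.06 in E14. Each of these 3 intervals included no change, and the difference between lines was not tested.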

How the results depend on the processing

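Of 384 log2 ratios recomputed for single windows under the 8 alternatives, 383 lay within the counting interval of the reported value and 0 changed direction. The 48 ratios without a read minimum could not differ, because that minimum affects calls alone. The exception was Inhbb H3K27me3 in EBs over atRA, which was -0.64 with background scaling. The 1 window called higher in H3K27me3 in EBs over atRA (Tdgf1) became 0 with a pseudocount of 5 reads, with background scaling and with windows shortened or extended by 2 kb. The mean of Lefty1 over the lines was 1.31 in shortened and 0.79 in extended windows. Leaving out 1 line at a time gave 2.26 to 2.70 (Fgf4), 1.34 to 1.84 (Nodal), 0.46 to 1.38 (Inhbb), 1.55 to 2.21 (Tdgf1), 0.89 to 1.08 (Lefty1) and 0.55 to 0.79 (Lefty2). In bins shifted by 1 kb, 2 were higher in H3K4me3 in EBs over atRA, 1 was higher in H3K27me3 in EBs over atRA and 1 lower in LF2 EBs. In 1 kb bins, 2 were lower in H3K27me3 in EBs over atRA, 2 higher in LF2 EBs and 8 higher in E14 EBs, where fewer bins reach 20 reads. Background scaling moved the log2 ratios within lines by -0.27 (H3K27me3, EBs over atRA in XT67E1) to 0.14 (H3K27me3, atRA over undifferentiated). H3K27me3 in EBs was set against undifferentiated cells of the same line, so the means over lines are of paired ratios. Within a line, no replicate block could be fitted because each group is 1 library. The 47 bins held a median of 3 H3K27me3 reads in undifferentiated XT67E1 and at most 22. The median was 2 in LF2 (at most 33) and 5 in E14 (at most 104), so depth limits most ratios of single bins.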
